A study of Homo sapiens with 16 samples.

Results

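Immediate early genes are the genes that a cell switches on first after a stimulus, without new protein synthesis. 10 of them were followed here in maps of N6-methyladenosine (m6A), the most common internal mark of mRNA: FOS, FOSL2, JUN, JUNB, JUND, EGR1, ATF3, IER2, IER5 and DUSP1. The members were the regions of the deposited list of merged peaks that lie inside the annotated spans of these genes on the human genome build hg38, with the peaks of each library that overlap them. A region was taken as inside a gene when at least 50% of it lay within the span, and 25 of the 36970 merged regions did. All 10 genes held at least 1 region. No other region of the list touched one of these genes.

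The samples came from a pair of human prostate cancer cell lines. C4-2B is an androgen-independent line that is sensitive to enzalutamide, a drug used against prostate cancer. MDV-R was derived from C4-2B by serial passage in enzalutamide, is resistant to it, and was kept in enzalutamide. Cells of both lines were labelled as wild type and collected on day 3, and each line had 4 replicates with an antibody-enriched library (IP) and an unenriched library (input). Each condition is thus a single line, and line, resistance and exposure to the drug cannot be told apart. No source used here states whether the replicates were separate cultures, so p-values below measure the spread between these samples. In the limma fits that spread is partly pooled over regions. Titles of the MDV-R samples name a further line besides, and samples were grouped by the cell line field.

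Immediate early transcripts are short, are induced by mitogen-activated kinase signalling through factors such as SRF and its partners, and are degraded soon after they are made, in part through AU-rich elements in the 3′UTR. FOS and JUN proteins pair to form AP-1, EGR1 is a zinc finger factor, ATF3 is a stress-induced factor of the ATF/CREB family, and DUSP1 is a phosphatase that switches the kinases off again. m6A is written mostly at a GGAC core and lies densely around stop codons. In this assay RNA fragments bound by an m6A antibody are sequenced, and a peak is a stretch where they exceed the input.

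The strongest peak of 6 of the 10 members had a GGAC of an annotated exon within 50 nt of its summit, the position with most tags. The sequences around these motifs are shown as those nearest to the strongest summit of each gene. In JUNB, IER2, IER5 and DUSP1 the summits of some other lists lay more than 50 nt from the motif shown. The motif of FOS is shown too, since FOS was called in a single line. Its nearest GGAC lay 142 nt from the summit. They are read 5′ to 3′ on the strand of the gene from hg38, and capitals mark GGAC.
FOSL2 3′UTR, chr2:28412583-28412608: ggacccaggtgGGACttagcagtgag
JUNB coding sequence, chr19:12792790-12792815: ttggggtcaagGGACacgccttctga
JUND coding sequence, chr19:18280682-18280707: cccatcgacatGGACacgcaggagcg
IER2 3′UTR, chr19:13154005-13154030: ggcccggagagGGACtctgtccccgg
IER5 coding sequence, chr1:181089653-181089678: agtggaggagaGGACgacgacgcgga
DUSP1 3′UTR, chr5:172768711-172768736: acatcccattgGGACtccatgctcct
FOS 3′UTR, chr14:75281524-75281549: agacctagggaGGACcttatctgtgc
Those of FOSL2, JUNB, JUND, IER2, IER5 and DUSP1 lay 1, 12, 22, 45, 35 and 12 nt from the summit. In the remaining members the nearest exonic GGAC lay 86 nt (EGR1), 239 nt (JUN) and 2906 nt (ATF3) away. The ATF3 summit lay in an intron. Up to 4 copies stood within 50 nt of a summit, in FOSL2, and 3 stood there in JUNB. A GGAC in the window is a description of the sequence and was not measured as a methylated site.

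The lists held 13191 to 30645 peaks each, with the fewest in C4-2B replicate 1 and the most in MDV-R replicate 4. The IP libraries had 317476 to 414102 tags as recovered from the peak statistics. A tag is a read kept by the authors' steps. The lowest number of tags at any called summit was 6 in C4-2B replicate 1 and 4 in each of the other lists. The input held 0.747 to 1.22 tags for each IP tag in C4-2B and 1.56 to 3.15 in MDV-R, so that input depth and line cannot be told apart. Of the markers of prostate luminal cells KLK2, FOLH1 and HOXB13 each held at least 1 region called in all 8 lists, TMPRSS2 and KLK3 held regions in at most 3 C4-2B and 4 MDV-R lists, and KRT8 and KRT18 held none. Of the 4 neuroendocrine markers ENO2 had a region in 2 MDV-R lists and no C4-2B list, and SYP, CHGA and INSM1 had none. Of the stromal and endothelial markers VIM was called in all 8 lists, COL1A1 in 1 C4-2B and 2 MDV-R lists, and PECAM1 had no region. The leukocyte marker PTPRC had none either.

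9 of the 25 member regions were called in all 8 lists, against 25.9% of the 36076 regions called in at least 1 list. They comprised 1 region each of FOSL2, JUN, JUNB, JUND, EGR1, ATF3, IER2, IER5 and DUSP1. Only FOS had no region of this kind. 1 member region was called in all 4 MDV-R lists and no C4-2B list, and none showed the opposite. The share over all called regions was 3.68% for the first pattern and 1.22% for the opposite. 14 member regions were called in more MDV-R than C4-2B lists and 1 in fewer, against 49.7% and 18.4% over all regions. C4-2B replicate 1 called the same 9 regions and no other. 6 member regions were called in a single list, and 5 of these came from MDV-R replicate 4, the longest list. The matching shares over all regions were not worked out, so whether these counts are usual cannot be told.

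**Figure D1:**
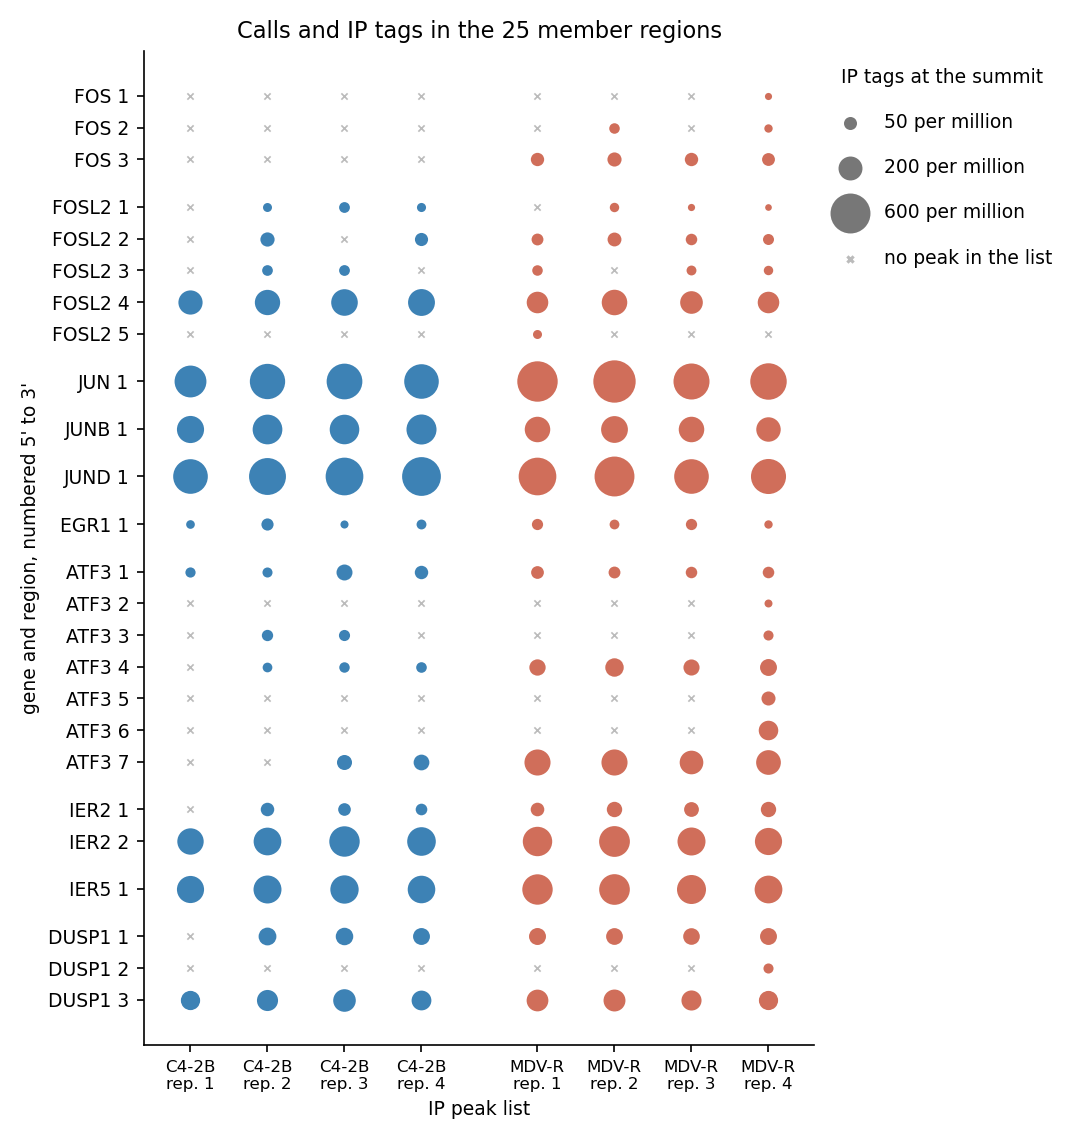
Calls and IP tags of the 25 member regions (rows, numbered 5′ to 3′ in each gene) in the 8 IP peak lists (columns). The area of a dot gives the RPM at the strongest summit and a cross marks a list without a peak. FOS has dots in MDV-R columns alone, and JUN and JUND carry the largest dots.

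FOS encodes the founding partner of JUN in AP-1. It was the member that differed most clearly in its calls: no C4-2B list held a peak anywhere in its span, and the 4 MDV-R lists held 7. Its strongest region (chr14:75280291-75281692) had its summits in exons 3 and 4. It held 24, 27, 31 and 26 IP tags at the summit in MDV-R replicates 1 to 4. As RPM, the tags at the summit scaled to the depth of the IP library in the usual way, these were 74.3, 83.8, 74.9 and 69.3. The 4 values lay close together, although the summit moved between 1740 and 2567 nt from the gene's start, always within coding sequence. The local background, which is the input level around the summit in multiples of the library's average, was 4.83, 3.84, 13.1 and 3.71, with replicate 3 apart from the rest. A second region over exon 2 (chr14:75279709-75280112) was called in replicates 2 and 4 with 15 and 11 tags, and another in the 5′UTR of exon 1 in replicate 4 alone with 8 tags.

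For the strongest FOS region Fisher's exact test of 0 of 4 against 4 of 4 lists gave p = 0.0286, the smallest this design allows. After Benjamini-Hochberg adjustment over all 36076 regions it was 0.584, so the region did not pass. With every list limited to the size of the shortest list the FOS region was called in 3 of the 4 MDV-R lists and still in no C4-2B list. Where no peak was called no tag number is known, so no fold can be given. A lower transcript level and less methylation in C4-2B cannot be told apart.

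**Figure D2:**
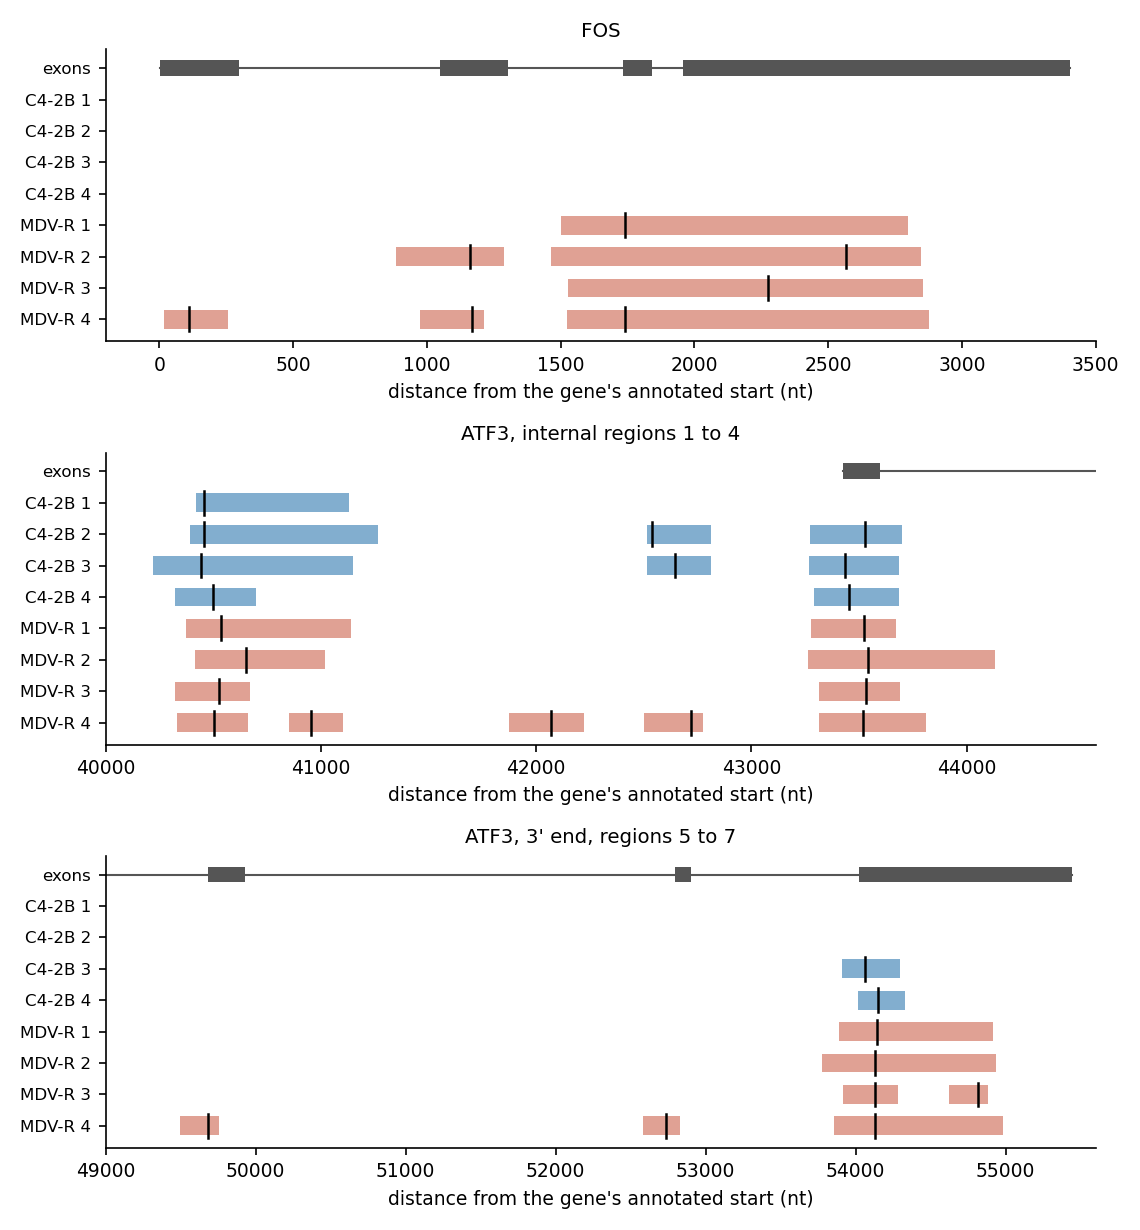
Peaks (bars) and their summits (black ticks) along FOS and along parts of ATF3 in each list, with exons of the canonical transcript on top and the distance from the gene's annotated start in nt on the horizontal axis. FOS has peaks in the MDV-R lists alone, whereas the ATF3 3′ end has peaks in 2 C4-2B and 4 MDV-R lists.

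FOSL2 encodes FRA2, a FOS relative that lacks the strong activation domain of FOS. It held 5 regions, of which that just past the stop codon (chr2:28411648-28413752) was called in all lists with summits in the 3′UTR in each. RPM were 245, 268, 296 and 302 in C4-2B replicates 1 to 4 and 195, 273, 215 and 195 in MDV-R. 3 of the 4 MDV-R values lay below all C4-2B values and replicate 2 did not. The mean went from 278 ± 26.4 (SD, n = 4) to 219 ± 37.0, a log2 difference of −0.35 ± 0.15 (SE) with a limma adjusted p of 0.0522. It passed with each library centred on its median over the 9327 regions called in all lists (0.000674), a fit that called 29.2% of them lower and 24.9% higher. Its local background, 26.6, 14.7, 19.3 and 26.3 in C4-2B, was 4.83, 6.07, 22.5 and 3.71 in MDV-R, where replicate 3 again stood apart. That difference was −1.58 ± 0.49 (limma adjusted p 0.0277).

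The other FOSL2 regions were weak. That in the 5′UTR of exon 1 was called in 3 lists of each line with 18.7 to 48.9 RPM. A region at chr2:28403861-28404339, whose summit is intronic in most lists, had a peak in 2 lists of C4-2B and all of MDV-R, and an intronic region at chr2:28408485-28408852 in 2 and 3. A last one in the distal 3′UTR was called in MDV-R replicate 1 alone, with 11 tags. None of the 4 was called in C4-2B replicate 1.

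JUN, JUNB and JUND, the basic leucine zipper proteins that FOS proteins need as partners, are genes of a single exon, and each carried 1 long region called in all 8 lists. In JUN (chr1:58781663-58784178) the strongest summits lay in coding sequence in each list. RPM were 425, 522, 535 and 501 in C4-2B and 684, 751, 543 and 557 in MDV-R. Every MDV-R value was above every C4-2B value, by little between C4-2B replicate 3 and MDV-R replicate 3. The means were 496 ± 49.1 and 634 ± 100.4 (SD, n = 4 each), a log2 difference of 0.35 ± 0.15 (SE). The limma adjusted p was 0.0511 and became 2.9e-05 with centred libraries, where 24.9% of regions were called higher. Local background was 73.2, 36.6, 41.3 and 42.7 in C4-2B and 62.8, 50.6, 122 and 34.6 in MDV-R, and the groups overlapped.

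JUNB (chr19:12791279-12793203), often a brake on JUN, had lower values in MDV-R. RPM were 308, 370, 367 and 378 in C4-2B and 272, 301, 273 and 251 in MDV-R, and the groups did not overlap. The means of 356 ± 31.9 and 274 ± 20.6 (SD, n = 4 each) differed by −0.37 ± 0.15 on the log2 scale (limma adjusted p 0.0329). It was the only member region past the threshold, against 19.9% of all 9327 regions called lower in MDV-R and 14.3% called higher. With tags recovered under the fragment extension the authors state, an alternative chosen after seeing the data, these shares were 14.8% and 20.8% and JUNB did not pass (0.104). The call was lost in 6 of the 8 fits that left out a library (adjusted p 0.0809 to 0.112) and held without C4-2B replicate 1 (0.00225) and without MDV-R replicate 2 (0.0155). The local background fell by more, from 56.6, 48.8, 31.4 and 49.3 to 21.8, 11.8, 30.3 and 10.3, without overlap (log2 difference −1.43 ± 0.39, limma adjusted p 0.0134). The summits lay at −66 to 5 nt from the stop codon in 6 lists, and at −762 and −759 nt from it in C4-2B replicate 3 and MDV-R replicate 2. Part of the JUNB span is also covered by HOOK2 on the opposite strand, and the peak lists carry no strand.

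JUND (chr19:18279935-18281785), the member of the family that is expressed most constantly, passed in none of the limma fits. RPM were 503, 570, 596 and 630 in C4-2B and 594, 667, 502 and 515 in MDV-R. The groups overlapped almost fully, with a log2 difference of −0.02 ± 0.15 (limma adjusted p 0.945). Local background was 37.8 to 103 in MDV-R and 90.3 to 135 in C4-2B (adjusted p 0.158).

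ATF3 forms dimers with JUN proteins and is induced by many stresses. It held 7 regions, the most of any member, and they did not behave alike. The first (chr1:212605554-212606589) lies in an intron of a longer transcript, upstream of the canonical start, and was called in all lists. Its RPM were 43.7, 42.4, 107 and 75.6 in C4-2B and 68.1, 58.9, 55.5 and 56.0 in MDV-R. The groups overlapped, with C4-2B replicates 1 and 2 lowest and 3 and 4 highest (log2 difference −0.07 ± 0.21, limma adjusted p 0.848).

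The regions of the ATF3 mRNA itself had more tags in MDV-R. In the 5′UTR of the canonical exon 1 (region 4, chr1:212608596-212609552) RPM were 39.5, 45.8 and 47.2 in C4-2B replicates 2 to 4, with no peak in replicate 1, and 111, 143, 109 and 119.97 in MDV-R. All 4 MDV-R values exceeded the highest C4-2B value by more than the spread within either line. The fit over the 13507 regions called in at least 3 lists of each line gave 1.45 ± 0.20 on the log2 scale (limma adjusted p 1.7e-11), against 15.1% of regions called higher there. Local background was 2.44, 1.57 and 3.28 in C4-2B and 16.9, 10.1, 37.5 and 7.42 in MDV-R, again without overlap. Its log2 difference was 2.67 ± 0.58 (limma adjusted p 0.0127, against 1.30% of regions called higher). The IP tags over local background differed by −1.22 ± 0.52 and did not pass (0.272).

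Around the ATF3 stop codon (region 7, chr1:212619090-212620317) a peak was called in C4-2B replicates 3 and 4 with 94.7 and 104 RPM. All 4 MDV-R lists called it, with 285, 285, 234 and 256. The background there was 11.02 and 22.98 in C4-2B and 56.8, 36.4, 90.1 and 49.5 in MDV-R. With 2 C4-2B values this region did not enter a fit, and lists that did not call it have no value. The summits lay in the coding part of exon 4, at −156 to −71 nt from the stop codon. Of the remaining regions 1 was called in 2 C4-2B lists and 1 MDV-R list, and the other 3 in MDV-R replicate 4 alone. These last lie in introns and had 10, 31 and 60 tags. MDV-R replicate 3 had a further summit in the 3′UTR within region 7, with 82 tags.

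**Figure D3:**
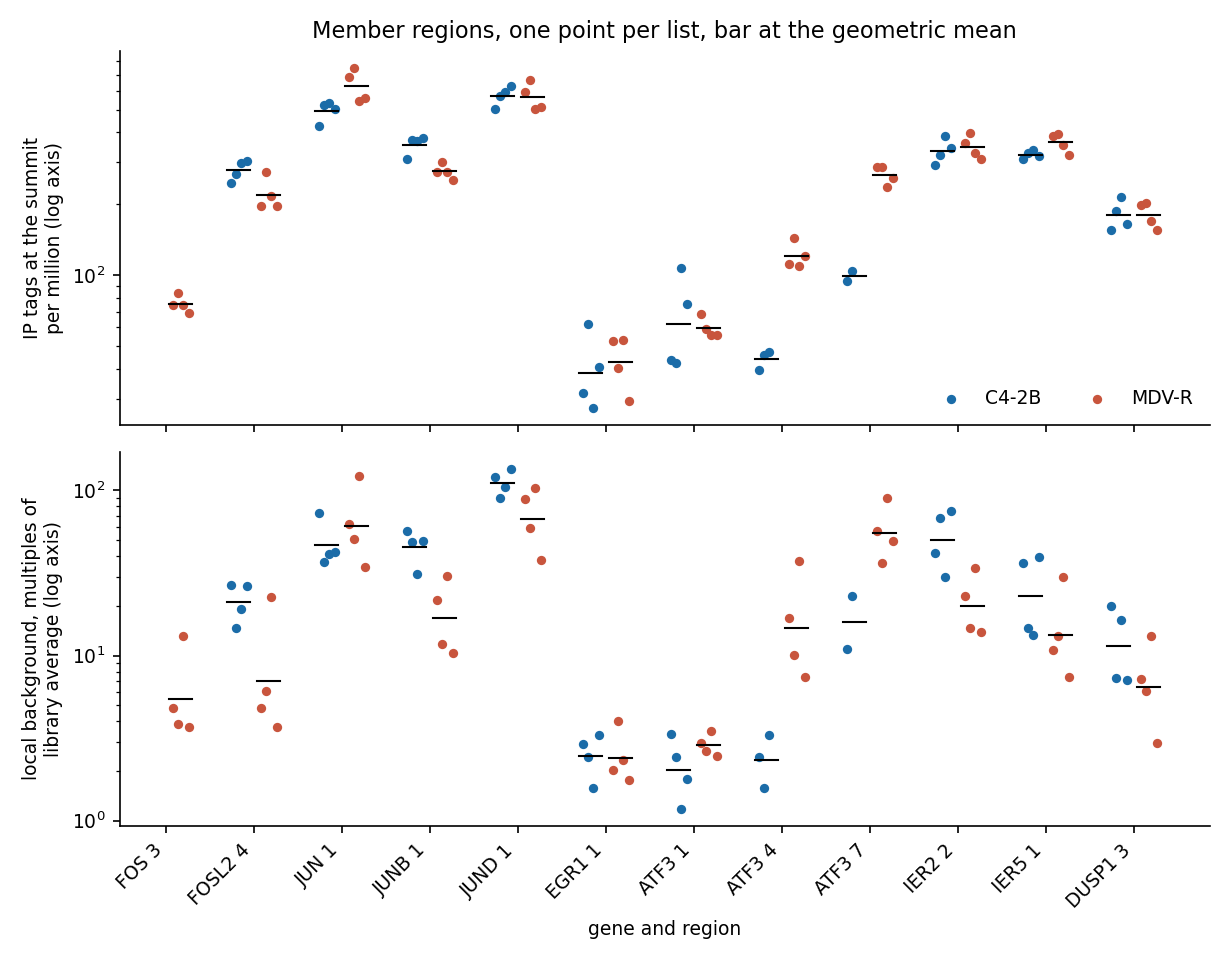
RPM at the summit (top, log axis) and local background in multiples of the library average (bottom, log axis) in 12 member regions, with 1 point per list that called the region and a bar at the geometric mean of each line. JUN and JUNB separate the lines in opposite directions on top, and ATF3 regions 4 and 7 are higher in MDV-R in both panels.

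EGR1, the early growth response factor, had a single region (chr5:138466682-138468224) that was called in all lists with few tags. The summit held 13, 22, 9 and 13 tags in C4-2B and 17, 13, 22 and 11 in MDV-R. As RPM these were 31.6, 62.1, 27.5 and 40.9 against 52.6, 40.3, 53.1 and 29.3. The groups overlapped fully (log2 difference 0.15 ± 0.24, limma adjusted p 0.681). The strongest summit lay at −202 to 44 nt from the stop codon in 5 lists and at −1085 to −927 nt in C4-2B replicates 1 and 3 and MDV-R replicate 4. With the widest peak in place of the strongest the sign turned (−0.57, adjusted p 0.0803), so no direction can be given. Its background, 1.57 to 3.28 in C4-2B and 1.77 to 4.04 in MDV-R, overlapped between the lines.

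IER2 and IER5 encode related nuclear proteins of the immediate early response. The main IER2 region (chr19:13152102-13154804) held 291, 322, 388 and 343 RPM in C4-2B and 362, 397, 328 and 309 in MDV-R. The groups overlapped (log2 difference 0.06 ± 0.15, limma adjusted p 0.807). The local background was 41.9, 68.4, 29.8 and 75.5 in C4-2B and 22.9, 14.8, 34.0 and 13.9 in MDV-R, where replicate 3 reached into the range of C4-2B. It fell by 1.33 on the log2 scale (SE 0.39, limma adjusted p 0.0207). The summits lay in coding sequence in 4 lists and in the 3′UTR in the other 4. Peaks of a second summit upstream, in the 5′UTR of another transcript, were merged into the same region.

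A further IER2 region at the 5′ end (chr19:13150138-13151284), 76.2% of which lies inside the gene, was missed by C4-2B replicate 1 alone. It held 76.2, 67.2 and 56.7 RPM in C4-2B replicates 2 to 4 and 77.4, 99.3, 91.8 and 98.6 in MDV-R. The lowest MDV-R value was just above the highest C4-2B value, and the difference of 0.46 ± 0.20 did not pass (limma adjusted p 0.0549 over 13507 regions). Noncoding genes on the opposite strand overlap this gene.

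IER5 (chr1:181088344-181090663), a target of heat shock and radiation responses, held 308, 328, 336 and 318 RPM in C4-2B and 387, 394, 353 and 323 in MDV-R. Only MDV-R replicate 4 reached into the range of C4-2B. The log2 difference of 0.17 ± 0.15 did not pass (limma adjusted p 0.385) and passed with centred libraries (0.0244), where 24.9% of all regions were called higher. Its local background was 13.3 to 39.4 in C4-2B and 7.42 to 30.0 in MDV-R and overlapped.

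DUSP1, which removes phosphates from MAP kinases, had a region on each end of its mRNA. At the 3′ end (chr5:172768452-172769151, around the stop codon) RPM were 155, 186, 214 and 164 in C4-2B and 198, 202, 169 and 155 in MDV-R. The means of 179.8 ± 26.1 and 181 ± 22.8 (SD, n = 4 each) were nearly equal (log2 difference 0.01 ± 0.16, limma adjusted p 0.969). The 5′UTR region (chr5:172770759-172771337) was called in all lists except C4-2B replicate 1. It held 133, 128 and 119.7 RPM in C4-2B and 121, 118, 116 and 119.97 in MDV-R (adjusted p 0.714 in the fit over 13507 regions). A weak intronic region was called in MDV-R replicate 4 alone.

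Over the 9 regions called in all lists the median log2 difference was 0.01 for IP tags, −0.79 for local background and 0.85 for their ratio. The same medians over all 9327 regions were −0.04, −0.48 and 0.44. The background of most regions thus stood lower in MDV-R, and a member is read against that shift. FOSL2, JUNB and IER2 were called lower in background, against 13.4% of all regions, and none was called higher, against 1.80% (9.75% and 6.62% with centred libraries). With each library centred these 3 still passed (adjusted p 0.0357, 0.00915 and 0.0391), and JUN was called higher by 0.87 (0.00786). No member passed for IP tags over local background, where limma adjusted over the same regions called 0.236% of all regions higher and 0.00% lower. With centred libraries and over the 13507 regions no member passed either, where 0.150% and 0.222% were called higher and 0.107% and 0.00740% lower. For background JUNB and IER2 also passed as lower over the 13507 regions, against 8.80%, and FOSL2 did not (0.059). MDV-R replicate 3 had a median background of 14.9 over the shared regions, against 6.19 to 8.46 in the other MDV-R libraries. Without it FOSL2, JUNB and IER2 passed for the ratio, all higher in MDV-R, against 13.5% of all regions called higher in that fit.

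**Figure D4:**
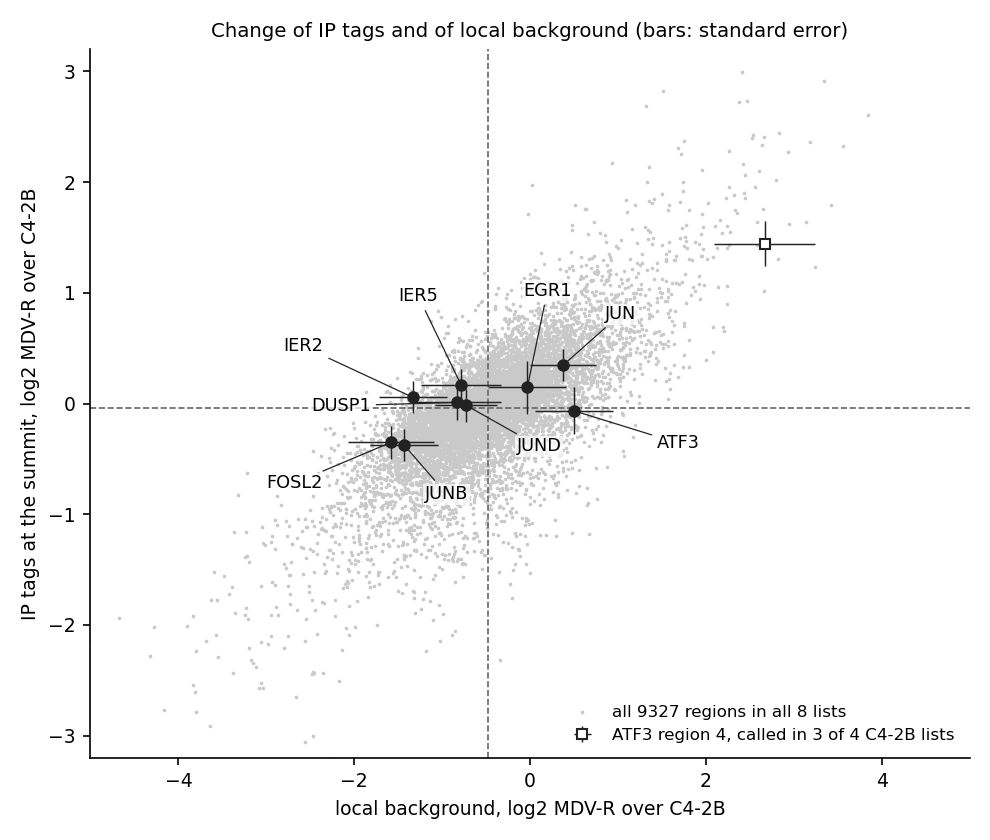
Log2 difference of IP tags (vertical) against that of local background (horizontal), MDV-R over C4-2B, for the 9327 regions called in all 8 lists (grey), the 9 member regions among them (black, bars are standard errors) and ATF3 region 4 from the wider fit (open square). Dashed lines mark the medians of all regions, and 7 regions lie outside the axes. The 9 members sit within the grey cloud, with FOSL2 and JUNB at its lower left and JUN at the upper right of its centre.

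The share of exonic bases covered by peaks gives a measure per gene that does not depend on how regions were merged. It was 0% in each C4-2B list for FOS and 40.6, 56.0, 41.6 and 57.5% in MDV-R replicates 1 to 4. For ATF3 it was 0, 6.53, 16.2 and 14.5% in C4-2B and 32.3, 35.6, 22.2 and 37.4% in MDV-R. JUN had 50.7, 63.9, 64.0 and 58.8% against 64.9, 65.8, 65.6 and 65.9%. JUND had 70.9 to 82.3% against 82.6 to 89.6%, and JUNB 84.5 to 93.5% against 93.7 to 94.3%.

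In these 5 genes the lines did not overlap, with more coverage in MDV-R, and the exact two-sided permutation test gave p = 0.0286 for each. The same held for 15.2% of the 10669 protein-coding genes with a peak, and 2.14% had less in MDV-R. The adjusted value over all genes was 0.165. The differences were 48.9 percentage points for FOS and 22.6 for ATF3 but 9.45 for JUND, 6.20 for JUN and 3.48 for JUNB. With lists of equal size FOS (p = 0.143) and ATF3 (p = 0.0571) no longer separated in this exact permutation test, while their differences stayed at 31.6 and 25.8 points. Leaving out any one MDV-R list kept the smallest possible p for FOS and ATF3 alone, and leaving out C4-2B replicate 1 kept it for FOS, JUN and JUNB. The lists that remained still did not overlap between the lines in any of the 5 genes.

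In FOSL2, EGR1, IER2, IER5 and DUSP1 the lists of the lines overlapped. The mean differences were 5.04, 8.53, 11.2, 0.83 and 6.06 percentage points in the same order, each higher in MDV-R. The exact permutation p lay between 0.0857 for IER2 and 0.457 for DUSP1. C4-2B replicate 1 had the lowest coverage of its line in all of these but IER5, and the shortest peak list. Without this list the mean difference was smaller in each of these genes, though still higher in MDV-R. That of DUSP1 fell to 0.13 percentage points (50.5% in C4-2B against 50.6% in MDV-R) and that of FOSL2 to 2.22. The DUSP1 difference thus rested almost wholly on C4-2B replicate 1. The part of this list in the differences was not tested beyond leaving it out.

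**Figure D5:**
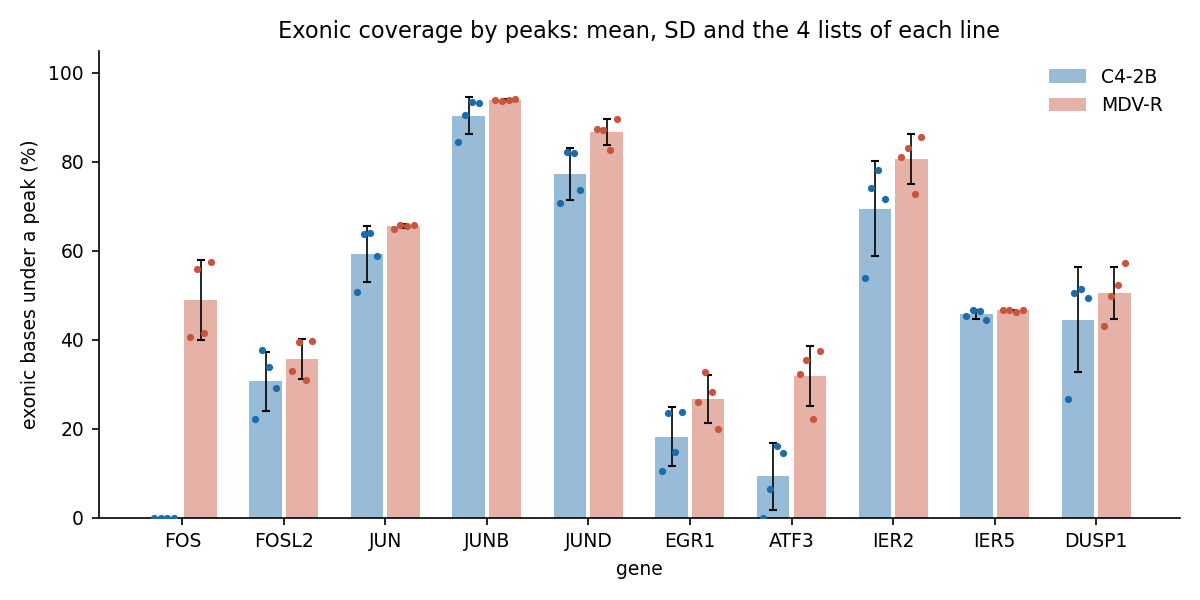
Percent of exonic bases under a peak in each member (bars, mean of 4 lists; whiskers, SD; points, the lists). FOS is at 0 in C4-2B, ATF3 separates the lines by 22.6 percentage points, and JUNB is above 84% in every list.

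The members were covered more than most genes. Their median coverage over all lists was 46.9%, against 10.5% over the protein-coding genes with a peak. JUNB and JUND lay above 99.7% and 99.0% of these genes, and ATF3, the lowest, above 71.3%. The lengths of the transcripts were not taken into account.

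The position of the member peaks was set beside that of all peaks in the lists. Of the 148 member peaks 66 had the summit in coding sequence, 29 in a 5′UTR, 21 in a 3′UTR and 32 in an intron. These were 44.6, 19.6, 14.2 and 21.6%, against 30.7, 5.36, 16.5 and 25.2% of the 182735 peaks on the main chromosomes. Of all peaks a further 10.5% were intergenic and 11.7% lay in non-coding exons, where no member peak lay. Peaks inside genes cannot be intergenic, which raises their other shares. The shares were not compared within the same classes. Of 109 summits on a canonical transcript 49 lay within 200 nt of the stop codon (44.95%, against 27.6%). Transcript length, which sets how much of a transcript that window covers, was not taken into account here either. A GGAC stood within 50 nt in 56 of 116 exonic summits (48.3%, against 46.8%). These peaks repeat the same places in up to 8 lists and are no independent sites, so no test was made.

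AU-rich pentamers, spelled ATTTA on the gene's strand and counted with overlaps, stood in the canonical 3′UTR of 9 members. FOS had 5 in 806 nt, DUSP1 4 in 666 nt, IER5 10 in 3014 nt and FOSL2 9 in 4869 nt. IER2 had none in 1053 nt. Of the 12145 protein-coding genes with a 3′UTR in the same range of lengths 82.6% held at least 1, and the median was 1.82 per kb against 2.40 in the members.

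Among 28 related immediate early and delayed early genes, 21 held 42 regions, and 18 of these were called in all lists. IP tags were called higher in 2 of the 18 and lower in 3, against 14.3% and 19.9% of all regions. Local background was called lower in 4 and higher in none, against 13.4% and 1.80%. EGR2, a relative of EGR1, had a region (chr10:62812946-62814476) with a peak in every MDV-R list and in none of C4-2B, at 27.9 to 41.1 RPM. This was 1 of the 42 related regions, against 3.68% of all regions. DUSP4, a nuclear phosphatase related to DUSP1, held 277 to 440 RPM in C4-2B and 98.6 to 121 in MDV-R in its stronger region. This was a log2 difference of −1.72 ± 0.15, and a second DUSP4 region differed by −2.38 ± 0.19. DUSP5, which acts on ERK, went from 44.1 to 94.7 up to 167 to 198 (1.35 ± 0.17). CCN1 was lower by a log2 difference of −0.78 ± 0.17 and TRIB1 higher by 0.53 ± 0.15. The changes of IP tags in DUSP4, DUSP5, CCN1 and TRIB1 passed limma at the adjusted threshold of 0.05. EGR2, without C4-2B values, entered no fit. Local background was lower in these DUSP4 regions (−3.43 and −3.12, limma adjusted p 5.6e-06 and 0.00027). In DUSP5, CCN1 and TRIB1 it differed by 1.27, −1.10 and 0.09 and did not pass. IP tags over local background differed by 1.71 and 0.74 in DUSP4 and by 0.08, 0.32 and 0.44 in DUSP5, CCN1 and TRIB1. None of these ratios passed. FOSL1, EGR3, EGR4, IER3, NR4A3, DUSP2 and SGK1 held no region.

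Of 14 genes upstream of the family, kinases and the SRF group of factors, 13 held 37 regions, and 9 of these were called in all lists. 1 was called lower in IP tags, in MAPK14, the p38 kinase (log2 difference −0.55 ± 0.20, limma adjusted p 0.0223), against 19.9% of all regions. Local background in that MAPK14 region was lower too (−1.86 ± 0.49, limma adjusted p 0.0113). The IP tags over that background differed by 1.31 ± 0.48 and did not pass (0.202). A region each of ELK4, a partner of SRF, and of MAPK8, the kinase JNK1, had peaks in every list of MDV-R and in none of C4-2B, which makes 2 of 37 against 3.68% of all regions. The ELK4 region (chr1:205600322-205600962) held 117 to 147 RPM in MDV-R and that of MAPK8 (chr10:48338828-48339758) 31.0 to 37.3. SRF itself held 161 to 189 RPM in C4-2B and 112 to 164 in MDV-R (limma adjusted p 0.154), while its local background was lower in MDV-R (−2.11 ± 0.52, adjusted p 0.0071). Its IP tags over background were higher by 1.82 ± 0.44 (0.0248), which no longer passed with centred libraries (0.284). MAPK3 held no region.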

How the data were processed

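m6A was mapped by antibody enrichment in 16 libraries, 8 of them IP, and the authors deposited 1 peak list per IP library and a list of merged peaks, whose making is not given in the sources used here. Per the submitters' processing notes the tools were STAR 2.7.0, SAMtools 1.10 and MACS2 3.0.0a6 on hg38. The values the authors deposited for each peak are the fold enrichment of IP over local background at the summit as a ratio, the −log10 of its p-value and q-value, and a score derived from the latter.

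IP tags and local background were solved from fold enrichment and −log10 p, which are linked by a Poisson tail. At least 99.99% of the peaks of each list gave whole tags within a relative tolerance of 2e-05. Depth followed from the fragment extension, taken as the shortest peak of each list (239 to 293 nt), since the stated 100 nt did not match the files. Tags at the summit scaled to depth (RPM) rest on that choice. Values exist only where a peak was called, and the recovered background is the highest among the windows that the caller compares. Of several peaks in a region the strongest was used. Peaks carry no strand.

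Genes were taken from GENCODE release 44. Log2 values were tested with limma 3.58.1 (R 4.3.3, lmFit and eBayes with trend, no covariate) over the 9327 regions called in all lists, with Benjamini-Hochberg adjustment over all of them and a threshold of 0.05. The SE given with a log2 difference is that of limma, drawn towards the spread of regions of similar level. Calls per region were tested with Fisher's exact test and coverage per gene with an exact two-sided permutation test over the 70 splits (Python 3.11.15, scipy 1.17.1). Scripts were tested on simulated data. The members and all lists were chosen with earlier results of these data known. All members were named with all their regions. Of the related and upstream genes at most 5 each were named, those called in a single line or with the largest change past the threshold. Alternatives were the replicate number as a block, other filters, a pseudocount of 1, the widest peak, centred libraries, lists of equal size, the canonical transcript, peaks per gene, the fold enrichment as deposited, the exact permutation test per region and leaving out each list. Some of the luminal markers are not reported here.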

Additional observations from a re-analysis of the deposited data

Results flagged for a closer look

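In 5 of 67 groups of 4 lists 1 list stood far from the other 3, by the gap to its nearest neighbour as a share of the group's whole range (past Dixon's 95% critical value). Chance alone marks about 1 in 20 such groups. MDV-R replicate 3 was the distant list in the local background of the strongest FOS region (0.881, with 13.1 against 3.71 to 4.83) and of the FOSL2 3′UTR region (0.875, with 22.5 against 3.71 to 6.07). Its median background over all shared regions was also the highest of its line. C4-2B replicate 1, the list with the fewest peaks, was distant in the local background of JUN (0.835, with 73.2 against 36.6 to 42.7). It was distant in the RPM of JUNB too (0.836, with 308 against 367 to 378), and in the share of DUSP1 exonic bases under a peak (0.916, with 26.8% against 49.4 to 51.5%).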

How the results depend on the processing

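Depth limits these values, since FOS and EGR1 rest on 7 to 31 IP tags at a summit and a list without a peak gives no value. With lists of equal size no member region was called in every list of one line and in none of the other (0, against 1). In each setting that left out a list 1 was so called. For IP tags 1 member region passed (JUNB). There were 0 with the replicate number as a block and 0 by the exact permutation test. There were 4 over regions called in at least 3 lists of each line (FOSL2, JUN, JUNB and ATF3). That fit called 15.1% of all regions higher and 21.1% lower. With centred libraries 4 of 9 passed (FOSL2, JUN, JUNB and IER5, where 24.9% of all regions were called higher and 29.2% lower). With a list left out 0 to 4 passed, against 11.2 to 15.2% of all regions called higher and 14.8 to 26.8% lower. Under the stated extension, an alternative chosen after seeing the data, JUN passed in place of JUNB. For local background 3 passed and 0 by the exact permutation test. With a list left out 0 to 5 passed, against 0.80 to 1.54% of all regions called higher and 5.13 to 33.6% lower. For their ratio none passed, and 1 did with the fold enrichment as deposited (IER2, against 3.02% of all regions called higher and 0.214% lower). With a list left out 0 to 3 passed, against 0.0531 to 13.5% of all regions called higher and at most 0.149% lower. Coverage separated 5 members, 3 with equal lists, 1 by peaks per gene (FOS), and 2 to 5 with a list left out. The exact permutation test per region calls nothing over all 9327 regions in this design.

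Signs turned as follows on the log2 scale. For IP tags these were EGR1 with the widest peak (−0.57), JUND with centred libraries (0.0041) and the stated extension (0.088), and ATF3 region 1 with the latter (0.040). For background it was EGR1 with centred libraries (0.46). For the ratio these were EGR1 with the widest peak (−0.32) and centred libraries (−0.26), and JUN with the deposited fold enrichment (0.091) and the stated extension (0.076). Coverage of EGR1 differed by −1.12 percentage points with equal lists, and peaks per gene by −0.25 in JUN and −0.5 in JUND. With a list left out IP tags ranged from −0.25 to 0.20 in ATF3 region 1, −0.056 to 0.10 in DUSP1, −0.017 to 0.38 in EGR1, −0.0096 to 0.13 in IER2 and −0.10 to 0.040 in JUND. Background ranged from −0.28 to 0.12 in EGR1, and the ratio from −0.0086 to 0.45 in EGR1 and −0.32 to 0.38 in JUN. The cause was not tested in any of these.

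Lists of the same number did not deviate together (correlations of IP tags −0.067 to 0.044), and the lists were not treated as pairs. These correlations cannot show whether libraries of the same number were prepared together. With the replicate block 0 member regions passed for IP tags, 3 for background and 0 for the ratio. No paired test was run for calls and coverage.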
